A study of Mus musculus with 11 samples.

Results

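The comparison described here is that of mouse embryonic stem cells given back CTCF with the H373R substitution against cells of the same line given back no CTCF, all with auxin. Its members are 5 of the 11 RNA-seq libraries of the series: 3 libraries labelled H373R auxin, whose titles name zinc finger 4 (ZF4), and 2 labelled EV auxin. Every gene with enough counts was examined, which came to 16420 of the 55228 genes in the deposited table. All cells belonged to EN52.9.1, a CTCF-AID line of mouse embryonic stem cells in which endogenous CTCF carries a degron. They were grown in serum medium with leukemia inhibitory factor, and the auxin analog indole-3-acetic acid was added at 500 µM to degrade that protein. The design text calls the EV auxin cells the deletion of CTCF, and the genotype label calls them depleted of endogenous CTCF. Of the other groups, FL auxin (3 libraries) was given back FL CTCF under auxin, and EV untreated (3 libraries) had the EV title, the label untreated wild-type and no auxin. The labels give neither the time with auxin nor the level of the returned proteins, and they do not say whether libraries came from separate cultures or whether each group is 1 clone. The p-values therefore measure only the spread between these libraries.

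CTCF is a DNA-binding protein with a row of zinc fingers that reads a long sequence motif and stops the loop-forming cohesin ring at its sites. Zinc fingers are small folds held together by a zinc ion that cysteines and histidines bind, and H373R replaces a histidine by an arginine. Embryonic stem cells correspond to the epiblast of the early embryo. In serum cultures a few cells resemble the neighbouring primitive endoderm, the tissue that makes the yolk sac, lays down a basement membrane and takes up and ships nutrients. The question put here is which functions differ between the cells with H373R CTCF and the EV cells under auxin.

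Counts were 17468219 and 23655716 in the EV auxin libraries and 23055709, 21041759 and 25427745 in the H373R libraries. As log2 CPM, which is the count scaled to the size of the library, H373R libraries correlated with each other across genes at 0.996, the EV auxin pair at 0.995, and pairs across the groups at 0.990 to 0.992. The 6 embryonic stem cell markers summed to 4390 to 4610 CPM in EV auxin and 4280 to 4360 CPM in H373R, and none was at 0. Ctcf itself had 364 and 359 CPM in EV auxin and 330, 326 and 306 CPM in H373R, a log2 difference of -0.17 ± 0.064 (SE, adjusted p 0.0683 in edgeR). The degron acts on the protein, and whether reads of the returned sequence were counted under Ctcf was not tested, so this transcript does not check the labels.

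Under auxin, H373R cells differed from EV cells in many genes by small amounts. At an adjusted p under 0.05 in edgeR's quasi-likelihood test, 3570 genes were called, which is 21.7% of those tested. Of these 1647 were higher in H373R (10% of the tested genes) and 1923 lower (11.7%). The median change was 0.34 on the log2 scale for the higher genes and -0.36 for the lower ones, and 142 genes changed at least 2-fold (51 higher and 91 lower). In all 3570 the libraries of the groups did not overlap, which held for 57.0% of all tested genes. On log2(TPM + 1) with limma, 35.4% of the called genes were higher, against 46.1% on counts. With EV auxin replicate 1 left out 1502 genes were called, with EV auxin replicate 2 left out 1536, and with EV untreated replicate 1 left out, a library of neither group, 5397 (33.0% of the genes tested then).

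The largest rises were led by genes of the yolk sac endoderm. Apob, the protein of lipoprotein particles, had 0.570 and 0.789 CPM in EV auxin and 2.92, 2.45 and 2.27 CPM in H373R, a fold of 3.64. Cubn, an endocytic receptor of absorptive epithelia, had 13.3 and 16.1 CPM against 46.2, 36.8 and 36.9 CPM. Dab2, the adaptor that sorts such receptors into endocytic vesicles, had 11 and 11.5 CPM against 29.3, 25.8 and 27.4 CPM. For these 3 genes every H373R library lay well above both EV auxin libraries, and the log2 changes were 1.86 ± 0.25 (SE, adjusted p 0.000193), 1.43 ± 0.14 (SE, adjusted p 2.8e-05) and 1.28 ± 0.13 (SE, adjusted p 2.95e-05). Klb, a co-receptor for endocrine FGFs, rose by 1.41 ± 0.17 (SE) on the log2 scale, and Srgn, the core protein of a secretory granule proteoglycan, by 1.34 ± 0.15 (SE). The other 5 of the 10 largest rises were Pga5, a pepsinogen (1.27 ± 0.16, SE), Gata6 (1.26 ± 0.10, SE), Has2, which makes hyaluronan (1.23 ± 0.23, SE), Nxph4, a neurexophilin (1.16 ± 0.10, SE), and the growth factor gene Fgf10 (1.13 ± 0.17, SE). Has2 lost its call with EV auxin replicate 2 left out (adjusted p 0.0517).

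**Figure D1:**
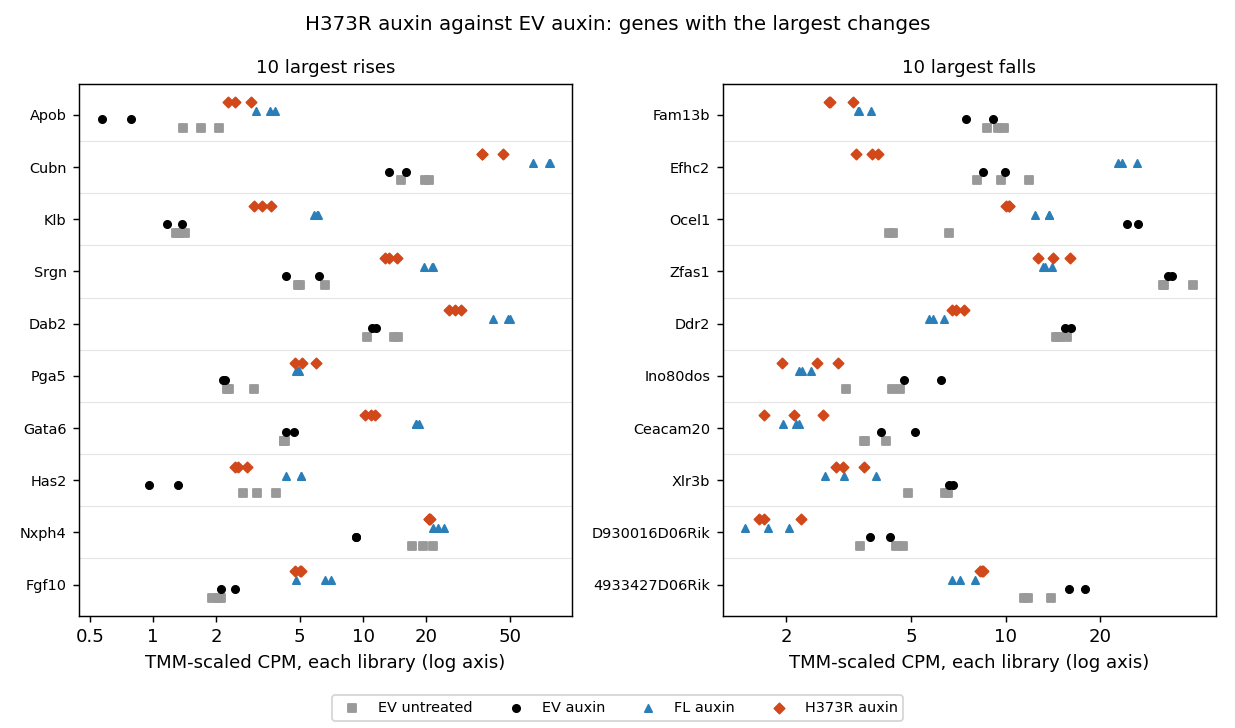
TMM-scaled CPM of each library (log axis) for the 10 largest rises and 10 largest falls between EV auxin and H373R auxin, with the FL auxin and EV untreated libraries beside them. In all 20 genes the 3 H373R points lie on 1 side of the 2 EV auxin points, as the rule for choosing them required. Apob goes from 0.570 and 0.789 CPM to between 2.27 and 2.92 CPM, and Fam13b from 7.47 and 9.12 CPM to between 2.73 and 3.25 CPM.

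The rise covered much of the primitive endoderm list. Of 24 tested members, 17 were higher in H373R than in EV auxin and 0 lower, beside 10% and 11.7% of all genes. The list median was 0.67 on the log2 scale against 0.00 for all tested genes. Gata6, the factor that commits cells to this lineage, had 4.28 and 4.69 CPM in EV auxin and 10.2, 10.8 and 11.3 CPM in H373R (adjusted p 4.33e-06). Gata4, which acts with it, had 7.81 and 8.47 CPM against 13.3, 12.9 and 13.0 CPM, and Sox17, a later factor of the lineage, 1.82 and 1.95 CPM against 3.79, 3.16 and 3.96 CPM. Pdgfra, the receptor that marks the lineage at the cell surface, had 3.02 and 2.91 CPM against 7.40, 5.38 and 6.46 CPM. For all 4 genes the lowest H373R library was above the higher EV auxin library. The log2 changes were 0.68 ± 0.10 (SE, adjusted p 0.00035) for Gata4, 0.94 ± 0.18 (SE, adjusted p 0.00226) for Sox17 and 1.12 ± 0.15 (SE, adjusted p 0.00016) for Pdgfra. Of the 17 called members, 11 were called whichever library was left out. Without EV auxin replicate 1 the calls of Foxa2 (adjusted p 0.204), Foxq1 (0.0877), Amn (0.0583), Cited1 (0.0635) and Lrp2 (0.0664) were lost, and without EV auxin replicate 2 that of Sox7 (0.474), with Foxa2, Foxq1 and Amn again. Leaving out single H373R libraries also ended the calls of Foxa2, Sox7 and Foxq1 (adjusted p 0.0502 to 0.102). Fst, Lamc1, Foxa1, Sparc, Hnf4a and Thbd were among the members that did not pass. With EV untreated replicate 1 left out the count was 18 higher and 0 lower.

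The same list was higher still in the cells with FL CTCF. Against EV auxin, 19 members were higher in FL and 1 lower, with a list median of 1.11, where 11.1% of all genes were higher in FL and 13.4% lower. Tested directly, 13 members were lower in H373R than in FL and 0 higher, with a list median of -0.48, where 2.82% of all genes were lower in H373R than in FL. Gata6 had 17.9, 18.4 and 17.9 CPM in FL, and the log2 difference of H373R from FL was -0.74 ± 0.074 (SE, adjusted p 2.31e-05). Cubn had 64.4, 76.8 and 77.2 CPM in FL, with no overlap with H373R and an adjusted p of 0.000256. The EV untreated libraries had 4.19, 4.26 and 4.19 CPM of Gata6, below both auxin groups with returned CTCF. Both comparisons against EV auxin share the same EV libraries.

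**Figure D2:**
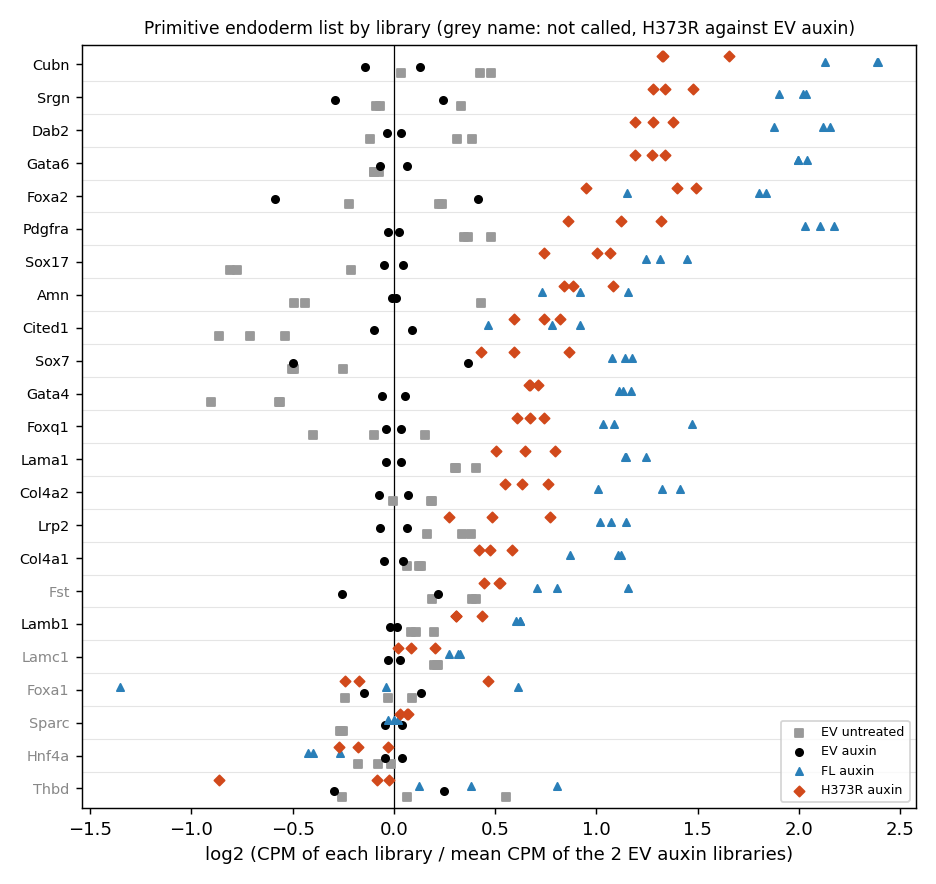
Log2 ratio of each library's CPM to the mean of the 2 EV auxin libraries for the tested genes of the primitive endoderm list, 1 left out, ordered by the fitted change in H373R. Grey names did not pass the test in H373R against EV auxin. For Gata6, Dab2, Cubn and Pdgfra the H373R points (diamonds) lie between the EV auxin points (circles) and the FL points (triangles).

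A set of 10 markers of primitive or visceral endoderm was kept to show cells of that kind in the culture. All 10 belong to the primitive endoderm list or the visceral endoderm list of the next paragraph, so their calls repeat those lists. All 10 were called higher, beside 10% of all genes, with Afp and Ttr at the floor of 3 counts in EV auxin. The sum was 42.1 to 45.7 CPM in EV auxin and 97.5 to 112 CPM in H373R. In FL it was 158 to 179 CPM, and in EV untreated 40.9 to 49.1 CPM. No marker was at 0 in any group. In bulk RNA more cells of a kind and more RNA per cell cannot be told apart.

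Genes with which the visceral endoderm takes up and carries nutrients were higher for 10 of 20 tested members and lower for 0, beside 10% and 11.7% of all genes. Amn, Cubn, Dab2 and Lrp2 are 4 of these 10 and were already counted in the primitive endoderm list, and of the 16 members outside it 6 were higher. The list median was 0.52, the same with 3 members at the floor of 3 counts set to their bounds. These 3, Apoa1, Afp and Ttr, were at the floor in EV auxin and passed the filter through other groups. A call of these members could therefore only be higher. Afp and Ttr are among the 10 called, and the shares of all genes are not a fair comparison for such members. Ttr, the carrier of thyroid hormone and retinol-binding protein, had 1 and 0 counts in EV auxin and 20, 20 and 23 counts in H373R, and no fold is given for it. Lrp2, the partner receptor of Cubn, was called at 0.52 on the log2 scale, but not with EV auxin replicate 1 left out (adjusted p 0.0664). Without EV auxin replicate 2 the calls of Apoe (adjusted p 0.0517) and Trf (0.0677) were lost, and that of Amn was lost without either EV auxin library (0.0583 and 0.071). Of the 10 called members 4 were also called against FL. Apob was not called between H373R and FL (-0.45 ± 0.16, SE, adjusted p 0.116), where FL had 3.63, 3.80 and 3.11 CPM.

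Basement membrane genes, the matrix that this endoderm lays down, were higher for 11 of 19 tested members and lower for 0, with a list median of 0.33, beside 10% and 11.7% of all genes. Of the 11, Lama1, Lamb1, Col4a1 and Col4a2 are also members of the primitive endoderm list, and of the 13 members outside it 7 were higher. Lama1, the laminin chain of the embryonic membrane, had 84.4 and 88.8 CPM in EV auxin and 150, 136 and 123 CPM in H373R (0.65 ± 0.075, SE, adjusted p 6.4e-05). Col4a1 and Col4a2, the chains of the collagen network, lie side by side on chromosome 8 and rose by 0.49 ± 0.074 (SE) and 0.65 ± 0.11 (SE). Col4a1 had 91.6 and 97.7 CPM in EV auxin against 142, 132 and 127 CPM in H373R and 204, 173 and 206 CPM in FL, with no overlap between the 3 groups. Nid2, which links laminin to collagen, had 444 and 457 CPM against 606, 566 and 556 CPM and was not called against FL (0.09 ± 0.043, SE, adjusted p 0.234). The fibroblast and mesenchyme list had 7 of 14 members higher and 0 lower (median 0.32), among them Thy1 (0.44 ± 0.063, SE) and the intermediate filament gene Vim (0.38 ± 0.063, SE). The summed fibroblast markers were 56.2 to 61.2 CPM in EV auxin and 72.5 to 79.5 CPM in H373R. Of 9 markers 4 had counts enough to be tested, 1 was called higher, and Postn was at 0 in H373R and Lum at 0 in EV auxin. Whether a few cells of another type had a part in this was not tested.

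Other germ layer genes moved in smaller numbers. Of 19 mesendoderm genes 6 were higher and 0 lower. Among them were Cdx1, a homeobox gene of the posterior embryo (13.3 and 14.2 CPM in EV auxin against 19.8, 19.9 and 20.7 CPM in H373R), the ligand gene Nodal (0.33 ± 0.067, SE) and Hhex (0.43 ± 0.087, SE). Of 13 neural and ectoderm genes 3 were higher and 2 lower, beside 10% and 11.7% of all genes. Sox1, an early neural factor, had 9.52 and 8.80 CPM in EV auxin and 16.7, 15.9 and 15.8 CPM in H373R, and its difference from FL was -0.50 ± 0.073 (SE, adjusted p 0.00074). Pax6, a factor of eye and neural progenitors, had 4.05 and 3.49 CPM in EV auxin and 1.81, 2.03 and 2.23 CPM in H373R (-0.88 ± 0.15, SE, adjusted p 0.00108), a fall that was not called with limma on log2(TPM + 1) (adjusted p 0.0658). Of 13 trophoblast genes 3 were higher and 1 lower, and 6 were higher without EV untreated replicate 1 (16.7% of all genes). The 3 are Gata2, Eomes and Krt8, at log2 changes of 0.55, 0.58 and 0.41. Without EV auxin replicate 1, which leaves 1 library in that group, their changes were 0.5, 0.52 and 0.38 and their calls were lost. The summed markers of these tissues were 191 to 193 CPM in EV auxin and 170 to 175 CPM in H373R for neural cells (Neurog2 at 0 in H373R), 8.84 to 8.88 and 11 to 11.5 CPM for mesoderm, and 12.1 to 12.2 and 11.1 to 14.1 CPM for trophoblast.

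Pluripotency genes changed in both directions. Pou5f1, the central factor of the state, had 1033 and 953 CPM in EV auxin and 990, 1000 and 988 CPM in H373R, and Sox2 differed by 0.08 ± 0.047 (SE, adjusted p 0.268), neither past the test. In the naive and core list 7 of 24 members were higher and 4 lower, beside 10% and 11.7% of all genes. The list median was 0.08. Dppa3, a maternal factor that keeps DNA unmethylated, had 31.5 and 31.3 CPM in EV auxin and 16.4, 15.7 and 16.4 CPM in H373R, near the 16.1, 14.9 and 14.4 CPM of EV untreated (-0.96 ± 0.075, SE, adjusted p 4.33e-06). Zfp42, also known as Rex1, fell from 746 and 704 CPM to 521, 524 and 514 CPM, and was lower than in FL as well (-0.18 ± 0.044, SE, adjusted p 0.0272). The latter call was lost without FL replicate 2 or 3 or any H373R library (adjusted p 0.0658 to 0.0982). Nanog was called lower by -0.23 ± 0.063 (SE), but not with EV auxin replicate 1 (adjusted p 0.137), EV auxin replicate 2 (adjusted p 0.0626) or H373R replicate 1 (adjusted p 0.0591) left out. In the formative and primed list 8 of 24 members were higher and 6 lower. Zic2 fell by -0.55 ± 0.061 (SE) and Lef1 by -0.72 ± 0.11 (SE), and Etv4, an ETS factor downstream of FGF, rose by 0.32 ± 0.053 (SE).

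The FGF and ERK list, signals that push stem cells towards primitive endoderm, split with 5 of 22 members higher and 6 lower. Of all tested genes 10% were higher and 11.7% lower. Fgf4, the ligand that stem cells make, rose from 150 and 149 CPM to 183, 184 and 181 CPM. The immediate early gene Egr1 fell from 14.7 and 14.3 CPM to 8.99, 9.24 and 8.73 CPM (-0.69 ± 0.087, SE, adjusted p 0.000118). Spred2, an inhibitor of ERK signalling, fell from 121 and 122 CPM to 93.2, 91.0 and 92.6 CPM. Against FL, 9 of these 22 members were lower in H373R and 1 higher, with a list median of -0.17, beside 2.82% and 3.14% of all genes. Fgf4 and Spred2 were among the 9, at -0.20 ± 0.045 (SE) and -0.18 ± 0.045 (SE). These calls were near the threshold, and leaving out FL replicate 2 or 3 or H373R replicate 2 or 3 ended both (adjusted p 0.0525 to 0.068 for Fgf4 and 0.066 to 0.103 for Spred2), as FL replicate 1 (0.0534) or H373R replicate 1 (0.0501) did for Spred2. Of 19 Wnt genes 2 were higher and 5 lower, with Lef1, a DNA-binding partner of beta-catenin, the most significant, and Sfrp1, a secreted Wnt inhibitor, higher by 0.27 ± 0.053 (SE). Of 17 Nodal and BMP targets 5 were higher and 2 lower, and 10 and 4 without EV untreated replicate 1, where 16.7% and 16.3% of all genes were. Id1, a BMP target, rose from 42.1 and 41.6 CPM to 59.2, 56.5 and 60.4 CPM, and Lefty2, a feedback inhibitor of Nodal, fell from 116 and 112 CPM to 87.2, 87.1 and 89.4 CPM.

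Targets of p53 were higher for 10 of 34 tested members and lower for 1, beside 10% and 11.7% of all genes. The list median was 0.16. Cdkn1a, a brake on cyclin-dependent kinases, had 67.4 and 64.7 CPM in EV auxin, 112, 109 and 116 CPM in H373R and 122, 110 and 109 CPM in EV untreated. Its change against EV auxin was 0.77 ± 0.065 (SE, adjusted p 6.85e-06), and against FL (104, 95.7 and 95.9 CPM) 0.19 ± 0.056 (SE, adjusted p 0.0616). Plk2, a kinase induced by p53, had 34.8 and 37.9 CPM in EV auxin, 51.1, 50.2 and 48.8 CPM in H373R and 59.3, 58.4 and 60.1 CPM in EV untreated. Pmaip1, which encodes the death protein Noxa, rose by 0.62 ± 0.082 (SE) against EV auxin and its difference from FL was -0.32 ± 0.070 (SE), a call lost without FL replicate 2 or 3 or H373R replicate 2 (adjusted p 0.0507 to 0.0617). Mdm2, another p53 target, differed by -0.07 ± 0.052 (SE, adjusted p 0.401). In EV cells 21 of the 34 members were lower with auxin than without and 2 higher, beside 9.40% and 11.3% of all tested genes.

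In several metabolic groups more members were called higher than lower, and many did not pass. In the glycolysis and hypoxia list 16 of 38 members were higher and 1 lower (median 0.14). Slc2a1, the main glucose transporter of these cells, had 864 and 868 CPM in EV auxin and 1141, 1142 and 1104 CPM in H373R (0.38 ± 0.052, SE), below the 1400, 1327 and 1296 CPM of FL. Egln3, an oxygen sensor that HIF induces, rose by 0.36 ± 0.051 (SE). In the list of the integrated stress response, the programme that Atf4 runs when amino acids are short, 13 of 34 were higher and 1 lower (median 0.12). Cth, which makes cysteine, rose from 38.7 and 36.0 CPM to 58.6, 64.8 and 66.3 CPM, Pck2 by 0.59 ± 0.083 (SE) and Mthfd2 by 0.38 ± 0.048 (SE). Lysosome genes were higher for 13 of 28 members and lower for 1 (median 0.16), for example the protease Ctsb (0.34 ± 0.050, SE). Nuclear genes of oxidative phosphorylation were higher for 14 of 76 and lower for 0, with a median of 0.12, and cholesterol and fatty acid synthesis genes for 7 of 35 and 0. Cytosolic ribosomal protein genes had 4 of 81 higher and 0 lower, beside 10% and 11.7% of all genes. That count depended on the fit, with 15 higher without EV untreated replicate 1 (16.7% of all genes) and 31 higher and 3 lower with only the 5 compared libraries (18.3% and 18.5%). Without EV untreated replicate 1 the oxidative phosphorylation list had 30 members higher and the cholesterol and fatty acid list 13. The unfolded protein response list had 0 of 22 higher and 2 lower.

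**Figure D3:**
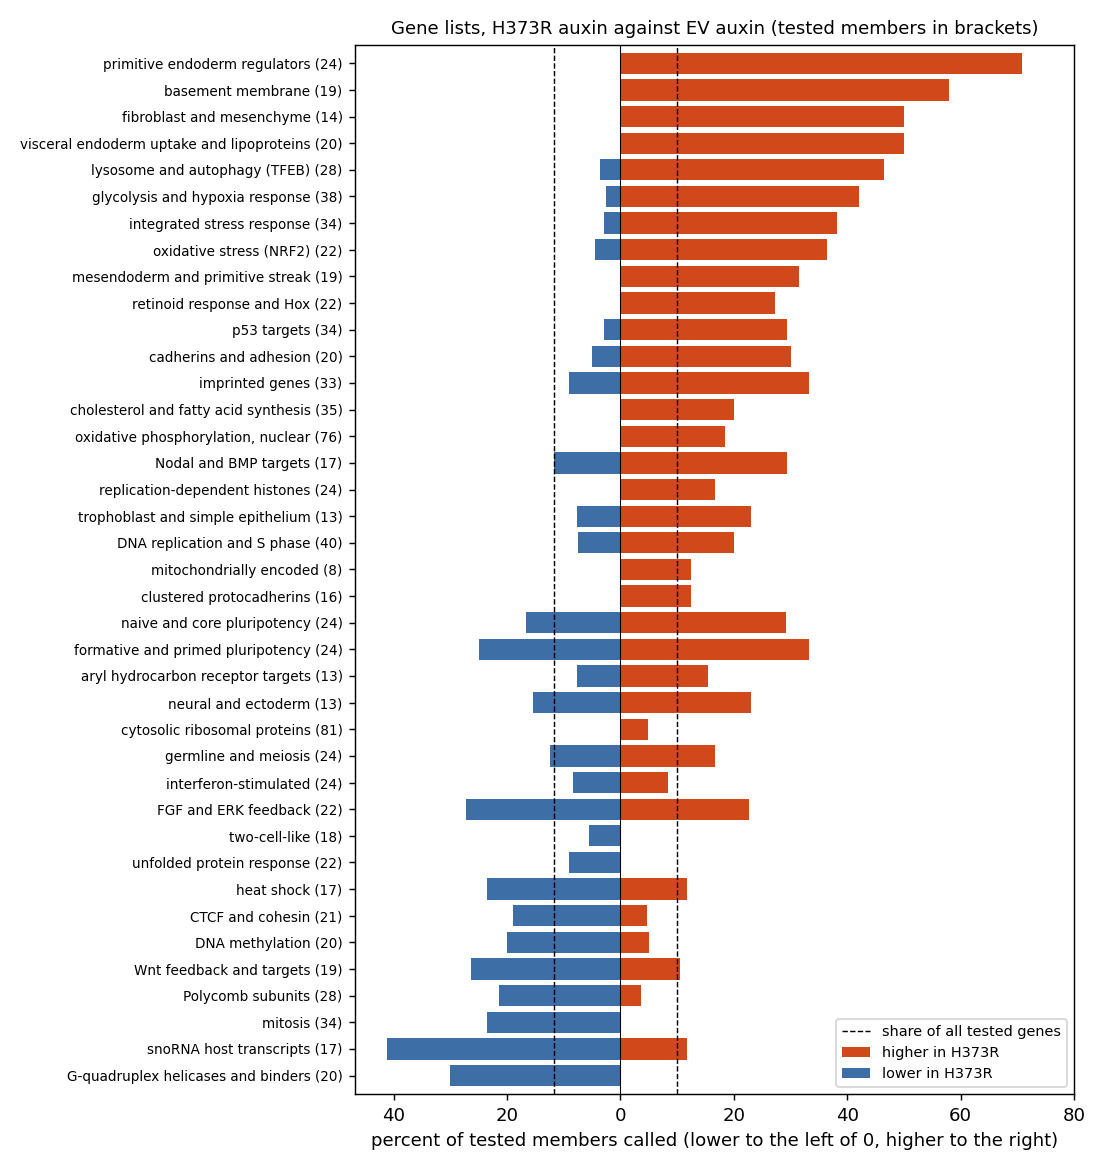
Percent of the tested members of each of the 39 gene lists that were called higher (right of 0) or lower (left of 0) in H373R auxin against EV auxin, with the number of tested members in brackets. Dashed lines are the shares of all tested genes, 10% higher and 11.7% lower. Lists are ordered by the share higher minus the share lower, with primitive endoderm (17 of 24 higher) at the top and G-quadruplex helicases (6 of 20 lower) at the bottom.

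In several groups of chromosome regulators more members were lower than higher, where 11.7% of all tested genes were lower and 10% higher. Of 20 G-quadruplex helicases and binders, proteins that bind or unwind folded G-rich DNA, 6 were lower and 0 higher. Atrx, a chromatin remodeller, had 197 and 198 CPM in EV auxin and 148, 132 and 128 CPM in H373R, and Rif1, a replication timing protein, 447 and 436 CPM against 318, 311 and 282 CPM. The helicase gene Dhx36 differed by 0.09 ± 0.087 (SE, adjusted p 0.515). Of 21 CTCF and cohesin genes 4 were lower and 1 higher, and 9 were lower without EV untreated replicate 1 (16.3% of all genes). Without EV auxin replicate 1, which leaves 1 library in that group, Pds5b and Cdca5 lost their calls, at log2 changes of -0.31 and 0.2. Nipbl, the cohesin loader, had 170 and 162 CPM against 125, 112 and 108 CPM (-0.53 ± 0.096, SE, adjusted p 0.00142), whereas Rad21, a ring subunit (-0.15 ± 0.069, SE, adjusted p 0.149), and Wapl, the release factor (-0.19 ± 0.084, SE, adjusted p 0.121), did not pass. Mitosis genes were lower for 8 of 34 and higher for 0, led by the kinetochore genes Cenpf (-0.60 ± 0.082, SE) and Cenpe (-0.58 ± 0.089, SE), while DNA replication genes were higher for 8 of 40 and lower for 3, led by the helicase subunit Mcm7 (0.29 ± 0.046, SE). Of 28 Polycomb subunits 6 were lower and 1 higher, with Suz12, a core subunit of the Polycomb methyltransferase, at -0.50 ± 0.074 (SE).

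Many of these lower genes are long, and the change between the groups moved with length and base composition across all genes. Over 12634 genes, which are not independent replicates and share the same libraries, the log2 change correlated with the GC content of the transcript at 0.308 and with log2 transcript length at -0.257. With genes in 4 equal groups by transcript length, 28.8% were lower and 6.62% higher in the longest group, and in the shortest 5.70% were lower and 15.7% higher. With both trends removed, an alternative added after the data were seen, the changes shrank to -0.28 for Nipbl, -0.26 for Atrx, -0.30 for Rif1, -0.33 for Cenpf and -0.37 for Cenpe, all still called. The list median moved from -0.10 to -0.03 for the G-quadruplex list and from -0.11 to -0.03 for CTCF and cohesin. The counts of lower members did not shrink, but in each of these lists more members were called higher than before. The counts were 6 lower and 2 higher for the G-quadruplex list and 5 lower and 2 higher for CTCF and cohesin. Dhx36, not called in the main fit, was 1 of the 2 higher G-quadruplex members, at 0.25 (adjusted p 6.96e-05 in edgeR). For mitosis they were 10 lower and 3 higher, and for Polycomb 8 lower and 5 higher. With the trends removed 4994 genes were called (30.4%, with 15.7% of the tested genes higher and 14.7% lower), and the primitive endoderm list had 19 of 24 higher and a median of 0.61. Where these trends come from was not tested.

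The largest falls did not belong to 1 function. Fam13b had 9.12 and 7.47 CPM in EV auxin and 2.75, 3.25 and 2.73 CPM in H373R (-1.50 ± 0.13, SE, adjusted p 7.39e-06), with 3.39, 3.42 and 3.72 CPM in FL. Ocel1 had 26.4 and 24.3 CPM in EV auxin, 10.3, 10 and 10.3 CPM in H373R and 6.59, 4.26 and 4.37 CPM in EV untreated, so that H373R lay between the EV groups. Ddr2, a collagen receptor kinase, fell from 16.1 and 15.5 CPM to 6.93, 7.36 and 6.73 CPM (-1.17 ± 0.089, SE, adjusted p 3.32e-06). Of the others, Zfas1, Ino80dos, D930016D06Rik and 4933427D06Rik are annotated as noncoding transcripts. Ino80dos (-1.13 ± 0.19, SE) and Zfas1 (-1.23 ± 0.11, SE) lie next to or across another gene, and Xlr3b (-1.10 ± 0.16, SE) has near-identical copies on the X chromosome, so that their reads are uncertain where counting ignored strand or split copies.

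Zfas1 is also a host of small nucleolar RNAs, which guide the modification of ribosomal RNA from within the introns of such genes. It had 34.0 and 32.9 CPM in EV auxin, 14.1, 12.6 and 16 CPM in H373R and 14.1, 13.1 and 13.3 CPM in FL. Of 17 tested hosts 7 were lower in H373R than in EV auxin and 2 higher, beside 11.7% and 10% of all genes. The list median was -0.25, which did not move when the GC and length trends were removed (-0.25). Snhg12 (-0.63 ± 0.12, SE), Snhg15 (-0.61 ± 0.11, SE), Snhg16 (-0.66 ± 0.11, SE) and Gas5 (-0.34 ± 0.056, SE) fell with it. Against FL 3 of the 17 hosts were higher in H373R and 1 lower, beside 3.14% and 2.82% of all genes.

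Most genes that separated H373R from EV auxin did not separate it from FL. Of the 3570 called genes 3181 did not pass against FL and 389 (10.9%) did, where 5.96% of all tested genes were called against FL. Both tests use the same H373R libraries. Of the 389, 155 were higher in H373R than in both other groups and 78 lower than in both, 114 were above EV auxin but below FL, and 42 below EV auxin but above FL. Of those beyond both, the 3 with the smallest adjusted p against EV auxin were Tgm2, Jarid2 and Ndrg1. Tgm2, a transglutaminase that crosslinks proteins, had 35.5 and 37.6 CPM in EV auxin, 66.9, 59.6 and 63.1 CPM in FL and 79.1, 75.0 and 74.6 CPM in H373R (0.27 ± 0.056, SE, adjusted p 0.0093 against FL). Jarid2, a subunit that brings Polycomb to its targets, had 675 and 677 CPM in EV auxin, 530, 558 and 554 CPM in FL and 497, 469 and 470 CPM in H373R. Ndrg1, a stress and hypoxia gene, had 80.1 and 82.0 CPM in EV auxin, 95.5, 95.4 and 95.4 CPM in FL and 115, 115 and 112 CPM in H373R. For these 3 genes no library of H373R overlapped a library of the other groups. Against FL, Tgm2 lost its call without FL replicate 2 (adjusted p 0.0549) or H373R replicate 1 (0.0633), and Jarid2 without FL replicate 2 or 3 or H373R replicate 2 or 3 (0.0516 to 0.0653), while Ndrg1 kept it in every such fit. With the GC and length trends removed the change of Jarid2 against EV auxin was -0.32.

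Imprinted genes are read from 1 parental copy and in several cases insulated by CTCF. Of 33 tested members 11 were higher and 3 lower, beside 10% and 11.7% of all genes. Without EV untreated replicate 1 the counts were 17 and 3 (16.7% and 16.3% of all genes). Of the members called with all libraries, 5 also differed from FL. All 5 were higher in H373R than in both other auxin groups. They are Peg13, H19, Mest, Plagl1 and Dio3, of which Plagl1 and Dio3 were singled out after their values were seen. H19, a noncoding transcript whose neighbour Igf2 is kept apart from a shared enhancer by CTCF, had 3.54 and 4.73 CPM in EV auxin, 4.15, 3.49 and 5.35 CPM in FL and 8.60, 8.49 and 9.46 CPM in H373R. Its log2 change was 1.08 ± 0.18 (SE, adjusted p 0.000824) against EV auxin and 1.01 ± 0.16 (SE, adjusted p 0.0015) against FL. Igf2 was not called against EV auxin (0.06 ± 0.24, SE, adjusted p 0.877). Its difference from FL was -0.76 ± 0.19 (SE, adjusted p 0.0311), a call lost without FL replicate 1 or any H373R library (adjusted p 0.0806 to 0.149). Mest had 28.8 and 28.4 CPM in EV auxin, 30.9, 35.8 and 29.7 CPM in FL and 46.2, 50.2 and 46.6 CPM in H373R. Peg13, a noncoding transcript from an intron on chromosome 15, had 0 and 1 counts in EV auxin, 6, 5 and 5 counts in FL and 28, 30 and 28 counts in H373R. At the floor of 3 counts in EV auxin, Peg13 passed the filter through other groups, so against EV auxin it could only be called higher. Because Peg13 lies inside Trappc9, its reads are uncertain where those of Trappc9 could have been counted with it. Plagl1, a zinc finger gene of growth control, rose by 0.95 ± 0.16 (SE) against EV auxin and 0.81 ± 0.14 (SE) against FL, and the call against FL was lost with limma on log2(TPM + 1) (adjusted p 0.0505) and log2(TPM + 0.1) (0.0782). Dio3, which inactivates thyroid hormone, had 1.06, 0.832 and 1.18 CPM in EV untreated, 5.08 and 5.98 CPM in EV auxin, 4.15, 3.57 and 3.52 CPM in FL and 7.96, 8.77 and 8.81 CPM in H373R.

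**Figure D4:**
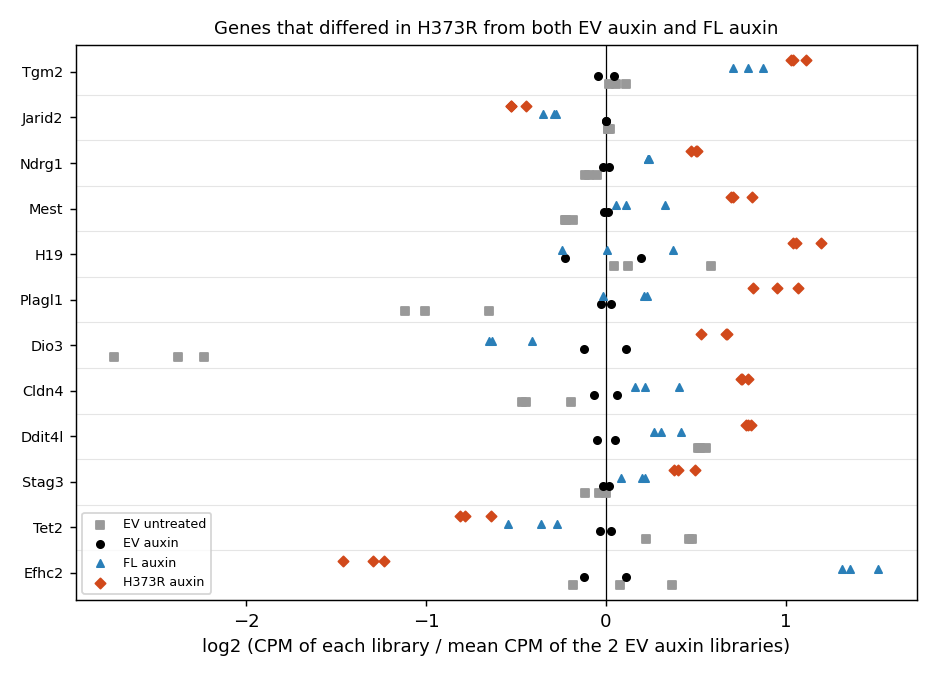
Log2 ratio of each library's CPM to the mean of the 2 EV auxin libraries for 12 genes that differed in H373R auxin from both EV auxin and FL auxin. The H373R points (diamonds) lie outside both other auxin groups in all 12, which the choice of genes called against both groups largely set in advance. Efhc2 was lower in H373R (3.35 to 3.92 CPM) than in EV auxin and higher in FL (22.9 to 26.3 CPM).

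Efhc2, an EF-hand gene on the X chromosome, moved in opposite directions with the 2 forms of CTCF. It had 9.92 and 8.47 CPM in EV auxin, 3.74, 3.92 and 3.35 CPM in H373R and 22.9, 23.5 and 26.3 CPM in FL, so that H373R and FL differed by -2.73 ± 0.13 (SE, adjusted p 2.94e-08) on the log2 scale. The EV untreated libraries had 8.09, 11.8 and 9.70 CPM. Cldn4, a tight junction protein gene, had 66.6 and 72.9 CPM in EV auxin, 92.6, 78.0 and 81.2 CPM in FL and 117, 118 and 121 CPM in H373R. Ddit4l, a p53 list member, had 10.1 and 10.8 CPM, 14.0, 12.9 and 12.6 CPM and 18.1, 18 and 18.3 CPM in the same order. The cohesin subunit gene Stag3 was higher in H373R than in FL by 0.25 ± 0.054 (SE, adjusted p 0.0104), and Tet2, which oxidises methylated DNA, was lower, at -0.35 ± 0.080 (SE, adjusted p 0.0169). Leaving out FL replicate 2 or H373R replicate 2 ended both calls (adjusted p 0.06 and 0.0657 for Stag3, 0.0914 and 0.0728 for Tet2), and FL replicate 3 (0.0766) or H373R replicate 3 (0.083) that of Tet2.

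Clustered protocadherins, neuronal adhesion genes whose promoters carry CTCF sites, had 2 of 16 tested members higher in H373R than in EV auxin and 0 lower, near the 10% of all genes that were higher. In EV cells 13 of the 16 were lower with auxin than without, where 9.40% of all genes were. The change in H373R had a fitted list median of 0.31 and of 0.07 when the 8 members at the floor of 3 counts were set to their bounds. The 2 calls, Pcdhgc3 (adjusted p 0.0839) and Pcdhga11 (adjusted p 0.357), were lost with EV auxin replicate 1 left out, and that of Pcdhga11 also without any H373R library (adjusted p 0.0633 to 0.0705). Against FL 5 members were lower in H373R and 0 higher, beside 2.82% and 3.14% of all genes, and FL itself had 7 members higher than EV auxin, beside 11.1%. The filter kept genes with enough counts in other groups, so members at the floor in EV auxin or H373R passed it through those groups. Lower values in EV auxin or H373R were thus partly set by the filter. The shares of all genes are not a fair comparison for the counts of this list. Members of a cluster share exons, so that their reads could have been split between them.

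Promoters were searched for the core of the CTCF motif, read as CCA, any 2 bases, AG, any 2 bases and GGC on either strand, in the 300 bases from 250 before to 50 after each start given by RefSeq for GRCm38.p6. Of the tested genes 11769 had 14979 such windows, and 2.76% of the windows held the core. It was in 3.77% of the windows of genes that were higher in H373R (61 of 1617), in 1.87% of those of genes that were lower (37 of 1982) and in 2.77% of the rest. Taken by gene, 14.0% of the 400 genes with a core were higher and 8.5% lower, beside 10.8% and 13.1% of the 11369 without one. With the GC and length trends removed these shares were 19.8% and 13.0% beside 17% and 16.3%. In FL against EV auxin 17.2% of the genes with a core were higher and 9.75% lower, beside 11.5% and 14.6%. In EV auxin against EV untreated the shares were 10.8% and 16.8%, beside 12% and 9.61%. These comparisons share the EV auxin libraries. Between H373R and FL 3% were higher in H373R and 6.5% lower, beside 3.2% and 2.83%. A pattern of G-quadruplexes, 4 runs of at least 3 G with 1 to 7 bases between them on either strand, was in 32.6% of the windows of higher genes, 27.3% of those of lower genes and 28.0% of all, and the mean GC content of these windows was 61.4%, 61.1% and 60.5%. A match is only a description of the letters, and CTCF binding was not measured here.

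The 6 promoters below, 4 of genes that were higher and 2 of genes that were lower in H373R, show where the core lay before the start. Each is the 150 bases before the start on the strand of the gene, from 5′ to 3′, with the core in capitals. They come from the 29 called windows that held a core before the start and no annotated exon.
Adprhl2: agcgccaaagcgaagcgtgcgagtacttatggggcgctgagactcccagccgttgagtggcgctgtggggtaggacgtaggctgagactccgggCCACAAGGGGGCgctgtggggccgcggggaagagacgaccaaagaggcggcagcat
Ppm1j: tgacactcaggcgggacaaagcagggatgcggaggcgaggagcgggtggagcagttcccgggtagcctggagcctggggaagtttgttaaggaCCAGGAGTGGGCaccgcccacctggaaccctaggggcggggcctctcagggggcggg
Rint1: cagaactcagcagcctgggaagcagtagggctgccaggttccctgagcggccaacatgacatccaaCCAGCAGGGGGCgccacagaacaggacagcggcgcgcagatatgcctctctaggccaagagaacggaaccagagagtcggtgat
Tmem35b: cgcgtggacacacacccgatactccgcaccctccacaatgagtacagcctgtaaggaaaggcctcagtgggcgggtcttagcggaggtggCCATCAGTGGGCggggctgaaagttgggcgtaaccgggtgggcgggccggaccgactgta
Nfat5: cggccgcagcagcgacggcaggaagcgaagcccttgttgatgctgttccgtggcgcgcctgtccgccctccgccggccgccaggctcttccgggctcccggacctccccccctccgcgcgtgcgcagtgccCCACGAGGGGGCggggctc
Fam199x: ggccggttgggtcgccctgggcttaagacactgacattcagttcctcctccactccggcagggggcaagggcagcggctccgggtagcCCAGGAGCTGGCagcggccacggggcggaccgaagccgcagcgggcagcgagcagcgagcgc

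The Adprhl2 stretch is chr4:126321704-126321853 on the minus strand of GRCm38.p6, with the core 56 to 45 bases before the start. Adprhl2, an enzyme that removes ADP-ribose from proteins, had 53.4, 42.8 and 43.1 CPM in EV untreated, 10.8 and 10.7 CPM in EV auxin, 22.5, 23.1 and 22.3 CPM in H373R and 39.5, 31.8 and 35.8 CPM in FL. No 2 of these groups overlapped. H373R was above EV auxin by 1.07 ± 0.12 (SE, adjusted p 5.48e-05) on the log2 scale, and its difference from FL was -0.67 ± 0.093 (SE, adjusted p 0.000483). The Rint1 stretch, chr5:23787561-23787710 on the plus strand, belongs to a gene of vesicle traffic with 16.4, 14.9 and 15.1 CPM in EV untreated, 8.84 and 7.35 CPM in EV auxin, 12.1, 12.1 and 12 CPM in H373R and 11.2, 12.5 and 10.8 CPM in FL. Here H373R and FL overlapped, and both lay between the EV groups.

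The Ppm1j stretch, chr3:104780906-104781055 on the plus strand, lies before a protein phosphatase gene that had 13.3 and 15.1 CPM in EV auxin and 24.1, 22.9 and 24.4 CPM in H373R (0.74 ± 0.086, SE). Tmem35b, with chr4:127125893-127126042 on the plus strand, had 2.85 and 3.28 CPM against 4.30, 4.25 and 4.65 CPM, and it lost its call with any of the 5 compared libraries left out (adjusted p 0.0532 to 0.204). Nfat5, a factor of the response to osmotic stress with the stretch chr8:107293320-107293469 on the plus strand, fell from 43.6 and 44.9 CPM to 32.6, 26.2 and 25.9 CPM (-0.65 ± 0.11, SE). With the trends removed the change of Nfat5 was -0.33. Fam199x, with chrX:137049444-137049593 on the plus strand, had 13.9 and 12.7 CPM against 9.51, 7.45 and 9.19 CPM, and it lost its call with EV auxin replicate 1 (adjusted p 0.113), EV auxin replicate 2 (adjusted p 0.064) or H373R replicate 2 (adjusted p 0.0626) left out.

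Whole chromosomes also differed. The 1339 tested genes of chromosome 11 had a median log2 change of -0.11, with 24.5% lower and 3.58% higher in H373R, and the 868 genes of chromosome 8 a median of -0.08, with 18.2% lower and 5.41% higher. The medians of the other chromosomes ran from -0.05 to 0.06. By library, chromosome 11 was at -0.109, -0.111 and -0.107 in the H373R libraries and at -0.009 and 0.009 in the EV auxin libraries, relative to the EV auxin mean. The FL libraries were lower than EV auxin on the same chromosomes (medians of -0.159 and -0.124), and between EV auxin and EV untreated the medians were 0.034 and 0.013. Outside chromosomes 8 and 11, 10.1% of 14213 tested genes were lower in H373R and 10.9% higher. Ocel1, Zfp42 and Nfat5 on chromosome 8 and Suz12 on chromosome 11 fell further than the medians of their chromosomes. The H373R and EV cells differ in the returned protein and in the culture, and the part of each in this shift cannot be told apart.

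**Figure D5:**
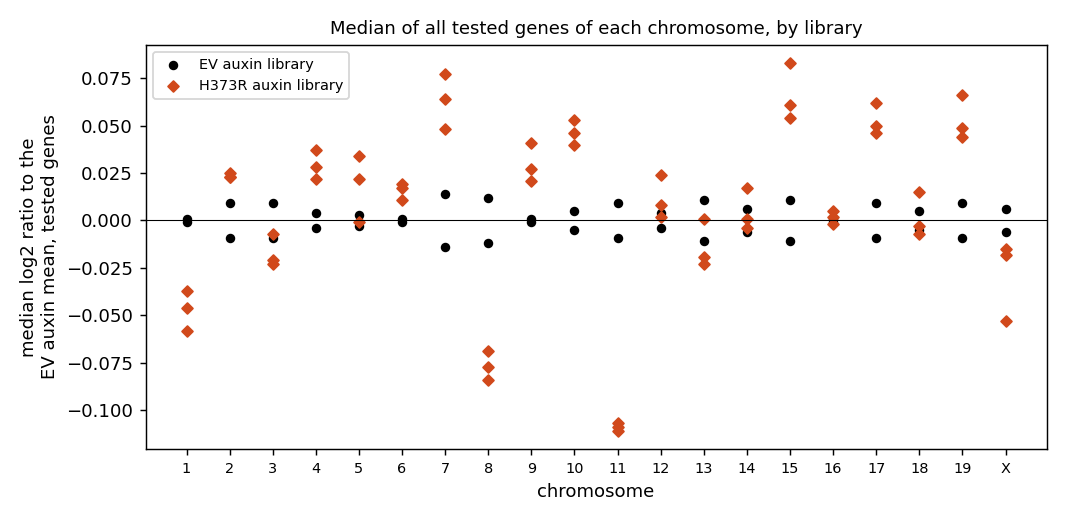
Median over the tested genes of each chromosome of the log2 ratio of each library to the EV auxin mean, for the 2 EV auxin libraries (circles) and the 3 H373R auxin libraries (diamonds). Chromosome 11 (-0.111 to -0.107) and chromosome 8 (-0.084 to -0.069) are the lowest in all 3 H373R libraries.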

How the data were processed

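The authors deposited raw counts per gene and TPM values for all 11 libraries, per the file headers, in tables of 55228 genes. The submitters' processing notes name featureCounts, Subread 2.0.3, DESeq2 and the mm10/GRCm38 build; the aligner, the annotation and the strand setting are not given in the sources used here. Per the labels' protocols, libraries were made from purified RNA with a directional kit.

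The counts went into edgeR 4.0.16 (R 4.3.3) with TMM scaling. Genes too low in every group were dropped by filterByExpr, leaving 16420. One model with a mean per group was fitted to all 11 libraries, which lends the 2 EV auxin libraries the spread of the other groups. Quasi-likelihood F tests were adjusted by Benjamini-Hochberg across every gene tested. Log2 changes carry the model's SE, and levels are TMM-scaled CPM, which are not adjusted for gene length. TPM were tested with limma 3.58.1 on log2(TPM + 1). DESeq2 1.42.0, other scalings, filters, thresholds, the replicate block and leaving out each library were alternatives. Chromosomes, gene types, GC content and lengths came from GENCODE M21, which held 98.9% of the tested genes. On simulated counts for 16420 genes with 200 changed in H373R against EV auxin, edgeR recovered 85% of 1.5-fold and 99% of 2-fold changes, with 8 false calls. The changed genes averaged more than 2 CPM, and all other genes were set equal between these groups. Recovery of lower genes, or with as many changes as in the data, was not tested.

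The named genes are Ctcf, the 10 largest rises and 10 largest falls among called genes whose compared libraries do not overlap and whose log2 CPM averages 1 or more, up to 3 members per list, taken by smallest adjusted p, and the 3 most significant genes beyond both EV auxin and FL; other genes named were added after their values were seen. Some genes that met this rule or belong to a list are not reported here. The comparison and the 39 lists were chosen with earlier results of these data known. No column belonged to samples other than these 11.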

Additional observations from a re-analysis of the deposited data

How the results depend on the processing

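The 3570 genes called in H373R auxin against EV auxin became 5909 with only the 5 compared libraries in the fit, 1843 at an adjusted p under 0.01 and 2335 with limma on log2(TPM + 1) without a filter. Leaving out each library gave 1502 to 5397. Of the 1502 genes called without EV auxin replicate 1, 1487 were among the 3570, and of the 5397 without EV untreated replicate 1, 3569. The other settings gave 2827 to 5172. The higher share was 32.4% with limma without a filter and 35.6% with a pseudocount of 0.1. H373R shares only 2 replicate numbers with EV auxin, and the deviations of these pairs correlated at -0.0725 and -0.0672. The deviations of the 2 EV auxin libraries mirror each other, so these values cannot settle whether libraries with the same number belong together. The fit with the replicate number as a block called 3532.

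H373R against FL (979) gave 1815 with only the libraries compared, 436 at an adjusted p under 0.01, 588 with limma without a filter, 2229 with GC and length trends removed, 2002 without the EV untreated group, and 510 to 2323 leaving out libraries. FL against EV auxin (4016) gave 2169 at an adjusted p under 0.01 and 1879 to 5800 leaving out libraries. EV auxin against EV untreated (3392) gave 2016 with only the libraries compared, 1939 at an adjusted p under 0.01, 5109 with trends removed, and 1569 to 5444 leaving out libraries.

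List medians near 0 changed sign in H373R against EV auxin: neural to -0.066 with at least 10 counts in every library, Wnt to -0.011 with that filter, -0.004 with the replicate block, -0.096 without EV auxin replicate 1 (0.123 without EV auxin replicate 2) and -0.038 with trends removed, germline to 0.008 with trends removed, and aryl hydrocarbon receptor targets to 0.029 without H373R replicate 3 (-0.227 without H373R replicate 2). Of 156 called genes singled out, 40 lost the call without EV auxin replicate 1, 43 without EV auxin replicate 2 and 5 with trends removed. The cause of these shifts was not tested. Of the fits that left out 1 library, those without EV auxin replicate 1 (1502) or 2 (1536) called the fewest genes in H373R against EV auxin.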

Other observations

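Some lists not described above were called in H373R auxin against EV auxin as follows. Of all tested genes 10% were higher and 11.7% lower. Of 22 retinoid response and Hox genes 6 were higher and 0 lower, and against FL 0 were called in either direction. Among them Cyp26a1, which breaks down retinoic acid, lost its call with EV auxin replicate 2 left out (adjusted p 0.0614). Without EV auxin replicate 1 the calls of Hoxb13 (0.0872), Hoxc13 (0.142) and Dhrs3 (0.107) were lost, and Dhrs3 was lost without EV auxin replicate 2 as well (0.113). Of 20 cadherin and adhesion genes 6 were higher and 1 lower, and 3 of these also differed from FL. Of 22 oxidative stress genes of NRF2 8 were higher and 1 lower, among them G6pdx, the first enzyme of the pentose phosphate pathway (0.26 ± 0.052, SE). Replication-dependent histone genes were higher for 4 of 24 and lower for 0, with a list median of 0.44, but none of the 3 with the smallest adjusted p kept its call with EV auxin replicate 2 left out.

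Of 24 germline genes 4 were higher and 3 lower. Stra8, a gene of meiotic entry, had 106 and 96.4 CPM in EV auxin and 69.3, 66.5 and 74.7 CPM in H373R, close to the 73.0, 71.6 and 71.3 CPM of EV untreated. Tex19.1 fell by -0.42 ± 0.048 (SE). Genes of the 2-cell embryo had 0 of 18 higher and 1 lower, interferon-stimulated genes 2 of 24 higher and 2 lower, aryl hydrocarbon receptor targets 2 of 13 and 1, heat shock genes 2 of 17 and 4, DNA methylation genes 1 of 20 and 4, and mitochondrially encoded genes 1 of 8 and 0, beside the same 10% and 11.7% of all genes. Of the interferon-stimulated genes called, Irf1, Tap1 and Ifi35 lost the call with either EV auxin library left out (adjusted p 0.0501 to 0.203). Hspb1, a small heat shock protein gene, rose from 70.5 and 78.2 CPM to 110, 108 and 112 CPM.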
